A study of Mus musculus with 24 samples.

Results

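The genes of the NLRP4, NLRP9 and NLRP14 families that mouse oocytes transcribe were taken as the rows of the RNA-seq table that carry the names Nlrp14, Nlrp4a, Nlrp4b, Nlrp4c, Nlrp4e, Nlrp4f, Nlrp9a, Nlrp9b or Nlrp9c. All 9 names had a row, among 16572 gene names in the table, and the rule itself uses names, not measured values. All 9 stood above the median level of all genes in both culture conditions, none was at least 2-fold higher in 5% O2 (18.7% of all genes tested were) or 2-fold lower (9.22% were), and some copies among them shared stretches of sequence longer than a sequencing read.

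NLRP proteins carry a pyrin domain at their start, a NACHT domain that binds nucleotide, and a run of leucine-rich repeats at their end. Some members of the family, such as NLRP3, assemble inflammasomes in immune cells, whereas a reproductive group is transcribed mainly in the oocyte and its messages and proteins are passed to the early embryo. NLRP14 belongs to this group and is needed by the egg for development after fertilisation, in part through its partner UHRF1. NLRP4F is a component of the subcortical maternal complex, a protein assembly under the egg membrane. Human NLRP4 binds Beclin 1 and directs the ubiquitin ligase DTX4 to the kinase TBK1, and mouse NLRP9B recognises viral RNA with the helicase DHX9 in the gut. In the mouse, the NLRP4 and NLRP9 genes have been copied several times, so that the messages of different copies resemble each other.

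The samples were class IV oocytes, the largest size class, labelled as 60 to 70 µm, grown without follicles from ovaries of 7-day-old mice labelled C57BL/6 Barb. The IV 5% O2 oocytes were cultured in 5% O2 for 9 days and the IV 20% O2 oocytes in 20% O2 for 14 days, with no drug in either group, and per the study's methods the medium was changed more often in 5% O2, so oxygen, time in culture and medium changes cannot be told apart. Each group had 2 RNA-seq libraries, made from pooled oocytes that were at first supported by theca-like cells, and the study's methods give mice of C57 Black6 and SV129 background, and a slightly smaller size for the 20% O2 oocytes. The authors' value for each gene and group is a single number, and how the 2 libraries were combined in it is not given in the sources used here, hence there is no replicate check, no mean with an SD and no test, and differences are given with 95% intervals that cover counting error only.

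The IV 5% O2 column held 132185258 reads and the IV 20% O2 column 40875359, of which 109629353 and 29754908 lay on the table's genes. All 8 oocyte markers had rows, with summed levels of 6459.6 and 10427 reads per 1000000 reads (RPM) in IV 5% O2 and IV 20% O2, and 3 of them (Kit, Zp2 and Zp3) were at least 2-fold lower in IV 5% O2, as were 9.22% of all genes tested. Of 10 theca and stroma markers 7 had rows, summing to 37.4 RPM in IV 5% O2 but 4.65 in IV 20% O2, where Col1a2, Dcn and Vim had 0 reads. Of the 6 that passed a mean of 1 RPM, Cyp11a1, Dcn, Postn, Star and Vim were at least 2-fold higher in IV 5% O2, as were 18.7% of all genes tested, but Star was not with either other scaling. Of 8 granulosa cell markers 5 had rows, at 38.7 and 29.0 RPM in sum, and of 6 macrophage markers 3, at 17.9 and 21.1 RPM. Of 4 erythroid markers only Alas2 had a row, at 1.32 and 1.57 RPM. The part of these cells in the values of the Nlrp genes was not tested, and in such bulk samples fewer oocytes and less RNA per oocyte cannot be told apart.

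The first 60 coding bases of the genes are shown because they let the 3 families be told apart by eye. They were read from the GRCm38 genome at the GENCODE coding start, and capitals mark a base that is not the most frequent one at its position among the 9 genes, the alphabetically first being taken where bases tie.
Nlrp14, chr7:107181173-107181232, plus strand: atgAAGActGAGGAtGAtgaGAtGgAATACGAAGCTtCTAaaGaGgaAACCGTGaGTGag
Nlrp4a, chr7:26444212-26444271, plus strand: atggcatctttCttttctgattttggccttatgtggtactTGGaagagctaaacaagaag
Nlrp4b, chr7:10710126-10710185, plus strand: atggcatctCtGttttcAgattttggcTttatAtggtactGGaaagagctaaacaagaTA
Nlrp4c, chr7:6060595-6060654, plus strand: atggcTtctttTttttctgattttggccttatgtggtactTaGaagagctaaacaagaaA
Nlrp4e, chr7:23301282-23301341, plus strand: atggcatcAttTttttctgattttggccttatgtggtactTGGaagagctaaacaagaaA
Nlrp4f, chr13:65199383-65199442, minus strand: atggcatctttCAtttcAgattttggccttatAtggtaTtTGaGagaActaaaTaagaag
Nlrp9a, chr7:26550812-26550871, plus strand: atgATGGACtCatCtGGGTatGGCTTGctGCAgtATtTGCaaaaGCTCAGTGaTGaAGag
Nlrp9b, chr7:20019172-20019231, plus strand: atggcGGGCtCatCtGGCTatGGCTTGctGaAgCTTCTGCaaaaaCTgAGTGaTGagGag
Nlrp9c, chr7:26394179-26394238, minus strand: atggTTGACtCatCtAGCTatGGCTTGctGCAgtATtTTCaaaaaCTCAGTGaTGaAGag

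The 5 Nlrp4 genes had between 4 and 10 such bases each, and Nlrp9a, Nlrp9b, Nlrp9c and Nlrp14 had 38, 34, 36 and 40. As 5 of the 9 genes are Nlrp4 genes, the most frequent base is mostly theirs. The counts therefore show distance from the Nlrp4 starts, position by position without alignment, and low counts for Nlrp4 were built in. The 3 Nlrp9 starts also resembled each other. Over the whole coding sequence, pairs within Nlrp4 were identical at 78.5% to 93.9% of aligned bases and pairs within Nlrp9 at 83.8% to 87.7%. Pairs of an Nlrp4 and an Nlrp9 gene were identical at 65.7% to 69.9%, and Nlrp14 was identical to the Nlrp4 genes at 67.6% to 69.5% and to the Nlrp9 genes at 66.9% to 68.3%. The coding sequences ran from 2589 bases in Nlrp4b to 3012 in Nlrp9a and Nlrp9c, and each had a longest coding exon of 1555 to 1582 bases. In NLRP genes this large exon codes for the NACHT domain. Nlrp4b had 7 coding exons, Nlrp4f 8, Nlrp14 10 and the other 6 genes 9 each.

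**Figure D1:**
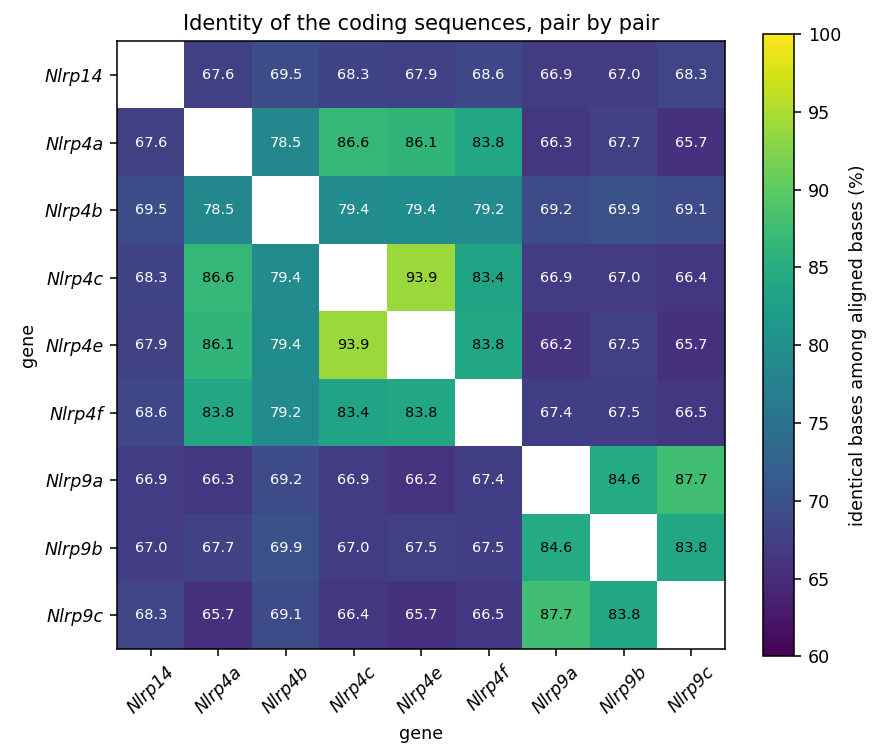
Identity of the coding sequences for each pair of the 9 genes, in percent of aligned bases (colour scale from 60 to 100%). The Nlrp4 and the Nlrp9 genes form 2 blocks, Nlrp4c and Nlrp4e are the closest pair at 93.9%, and Nlrp14 is under 70% with each of the others.

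The pair with the longest shared coding run in each family is shown next, since reads from within the runs cannot be assigned by their letters. Nlrp4c and Nlrp4e shared a coding run of 120 identical bases, and Nlrp9a and Nlrp9b one of 129. By identity over the whole coding sequence Nlrp9a was closer to Nlrp9c, with a longest shared run of 84 bases. Each run is printed from GRCm38 with 20 bases on either side, and capitals mark the bases at which the pair differs.
Nlrp4c, chr7:6060695-6060854, plus strand: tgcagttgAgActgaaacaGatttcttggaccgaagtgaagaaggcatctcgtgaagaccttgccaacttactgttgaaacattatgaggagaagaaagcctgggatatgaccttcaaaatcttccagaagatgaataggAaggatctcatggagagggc
Nlrp4e, chr7:23301382-23301541, plus strand: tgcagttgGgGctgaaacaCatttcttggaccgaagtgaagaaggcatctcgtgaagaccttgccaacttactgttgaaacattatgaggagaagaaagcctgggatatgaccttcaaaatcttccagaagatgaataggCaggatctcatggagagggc
Nlrp9a, chr7:26557527-26557695, plus strand: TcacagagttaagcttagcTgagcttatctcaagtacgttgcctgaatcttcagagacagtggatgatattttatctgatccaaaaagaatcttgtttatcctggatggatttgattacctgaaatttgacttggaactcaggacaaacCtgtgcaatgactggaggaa
Nlrp9b, chr7:20023408-20023576, plus strand: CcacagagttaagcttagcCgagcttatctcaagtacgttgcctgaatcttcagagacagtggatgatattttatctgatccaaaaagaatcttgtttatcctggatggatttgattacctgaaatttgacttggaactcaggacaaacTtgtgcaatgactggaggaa

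Each read had 100 bases and reads came in pairs, so a read inside either run would fit both genes, whereas its mate could lie outside the run. Windows of 100 bases were therefore taken every 10 bases along the exons and looked for in the rest of the genome. Nlrp14, on chr7:107166990-107198102, had no window with another copy, exact or within 2 mismatches, among 243, and Nlrp4b, on chr7:10687789-10730168, had none among 365. Nlrp4a, on chr7:26435113-26476142, had no exact copy and 2.81% of windows within 2 mismatches of another place. Nlrp4f, the only member outside chromosome 7, lies on chr13:65177111-65205977 and had no exact copy and 7.17% within 2 mismatches, of which 18 windows lay in its relative Nlrp4g. These 4 genes, Nlrp14 and the 3 Nlrp4 genes with the highest read counts, had no exact copy at this length. Reads were trimmed, and shorter windows were less distinct: at 50 bases Nlrp4f had an exact copy of 24 of its 343 windows and 35.6% within 2 mismatches, Nlrp4a 2.37% and 15.9%, Nlrp4b 0% and 1.47%, and Nlrp14 still none.

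The other Nlrp4 genes were less distinct at 100 bases. Nlrp4e, on chr7:23301192-23362277, had an exact copy of 17.0% of its 253 windows and a copy within 2 mismatches of 67.6%. Most of these copies, 162 windows, lay in annotated pseudogenes (Gm16443, Gm4541, Gm8486, Gm8685 and Gm8728), which are not rows of the table, and 34 lay in Nlrp4c. Nlrp4c, on chr7:6045161-6105150, had 1.03% exact copies and 18.5% within 2 mismatches. Among the Nlrp9 genes the exact share was 1.24% in Nlrp9a (chr7:26535023-26575615), 3.08% in Nlrp9b (chr7:19991465-20073306) and 0.202% in Nlrp9c (chr7:26322473-26403700), and the share within 2 mismatches was 6.64%, 7.69% and 2.02%. The counts of Nlrp4e, and to a smaller extent of Nlrp4c, are therefore uncertain, since reads of other copies may have been added to them or their own reads lost. How reads with several matching places were treated is not given in the sources used here. At 50 bases the exact share was 42.3% in Nlrp4e, 14.7% in Nlrp4c, 11.6% in Nlrp9b, 6.78% in Nlrp9a and 3.31% in Nlrp9c. Nlrp9b also shares 136 exonic bases with the annotated pseudogene Gm18877 on the same strand. Gm45379 lies on the same strand inside an intron of Nlrp4b, with no exonic base shared, and had 121 and 27 reads.

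**Figure D2:**
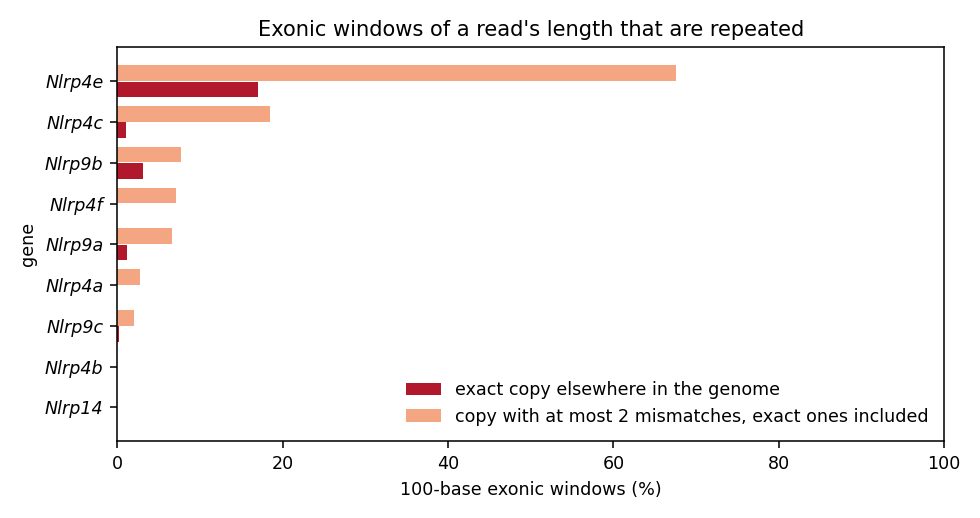
Share of 100-base exonic windows of each gene, in percent, that occur elsewhere in the genome exactly (red) or with at most 2 mismatches (orange, exact copies included). Nlrp4e stands at 17.0% and 67.6%, Nlrp4c at 1.03% and 18.5%, and the other genes below 10% on both.

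Nlrp14 was the most abundant of the 9 transcripts in both groups and Nlrp4c the least. The 9 genes together reached 7273 RPM in IV 5% O2 against 6667 in IV 20% O2. As a share of the reads on the table's genes they went the other way, with 0.877% and 0.916%. RPM is per all reads of a column, of which a larger part lay on genes in IV 5% O2. The direction of the sum thus depends on the divisor. Nlrp14 alone held 47.3% of the 9 genes' reads in IV 5% O2 and 54.1% in IV 20% O2. The 5 Nlrp4 genes held 39.7% and 34.4%, and the 3 Nlrp9 genes 13.0% and 11.5%. Nlrp14 had 3439.8 RPM in IV 5% O2, from 454691 reads, and 3607 RPM in IV 20% O2, from 147450 reads. By RPM it was the third most abundant gene of the table in IV 5% O2 and the fifth in IV 20% O2.

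RPM counts all reads of a gene, so levels are compared between genes only after division by the exonic length, as RPM per kilobase. Nlrp14, with 3537 exonic bases, stood at 973 RPM per kilobase in IV 5% O2 and 1019.9 in IV 20% O2, the places 9 and 11 among 16553 genes with a length. Nlrp4f stood at 361 and 248 RPM per kilobase and Nlrp4a at 157 and 125. Nlrp9b stood at 119 and 97.0 RPM per kilobase, Nlrp4b at 92.9 and 94.0, and Nlrp9a at 82.2 and 75.3. The middle of the order thus mixed the families. Nlrp4e stood at 63.0 and 65.6 RPM per kilobase, Nlrp9c at 36.8 and 24.2, and Nlrp4c at 24.1 and 20.1.

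The order of the 9 genes by RPM per kilobase was the same in both groups. In IV 5% O2 no neighbours in this order had overlapping counting intervals, and in IV 20% O2 only Nlrp9b and Nlrp4b did. The highest gene exceeded the lowest 40.3-fold in IV 5% O2 and 50.6-fold in IV 20% O2. Even Nlrp4c stood above the median of all genes, which was 3.61 RPM per kilobase in IV 5% O2 and 3.15 in IV 20% O2. Of the 9 genes 7 were among the 1000 highest in both groups, the exceptions being Nlrp9c and Nlrp4c. Nlrp9c has the longest annotated exons of the 9 genes, 5935 bases, and by RPM it held place 734 in IV 5% O2 and 1089 in IV 20% O2. The pair closest in sequence, Nlrp4c and Nlrp4e, differed 2.61-fold in IV 5% O2 and 3.26-fold in IV 20% O2, with Nlrp4e the higher. When the level was divided by the exonic length outside repeated windows, Nlrp4e reached 135 RPM per kilobase in IV 5% O2 and moved from place 7 to place 4, so its place in the order depends on how its copies are counted.

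**Figure D3:**
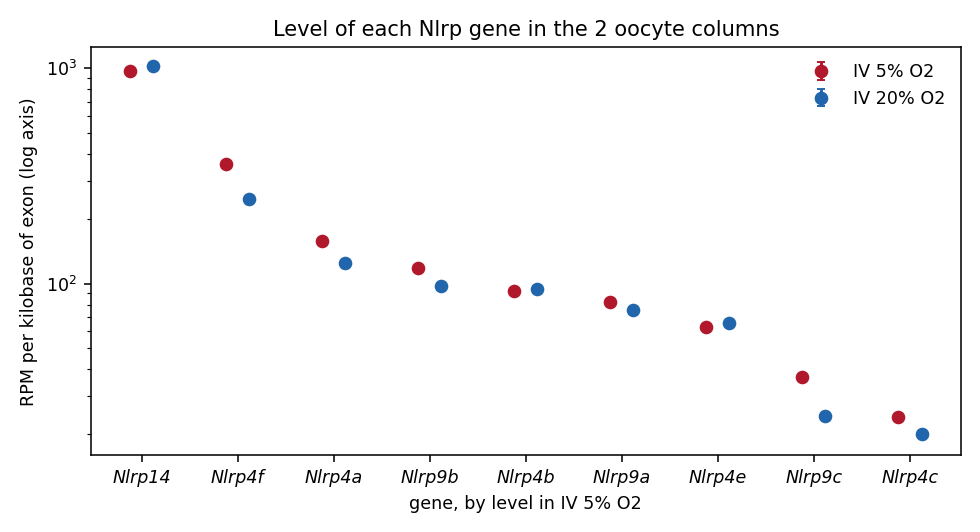
Level of each gene in RPM per kilobase of exon (log axis) in IV 5% O2 (red) and IV 20% O2 (blue), with bars for 95% Poisson counting intervals that are mostly smaller than the points. Nlrp14 stands at 973 and 1019.9, Nlrp4c at 24.1 and 20.1, and the order is the same in both columns.

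The comparison of IV 5% O2 with IV 20% O2 asks how the culture condition went with the level of each gene. Differences are of log2(RPM + 1), IV 5% O2 minus IV 20% O2, and all 9 genes passed the limit of a mean of 1 RPM, as did 14704 genes of the table. Of the 9 genes 0 were at least 2-fold higher in IV 5% O2, where 18.7% of all genes tested were (2753 genes), and 0 were at least 2-fold lower, where 9.22% were (1356 genes). With median-ratio scaling the counts over all genes were 1700 and 2031, and with quantile normalization 1759 and 1866. Among the 2282 genes at least as abundant as Nlrp4c, 12.7% were 2-fold higher and 5.48% 2-fold lower, so 0 of 9 related genes sets them little apart. The median difference of the 9 genes was 0.26, as was the median of all genes tested, and 4 of the 9 lay above that median. As scaled by depth, the difference was under 1.5-fold for 8 of the 9 genes, which held for 48.6% of all genes tested and 58.1% of those at least as abundant as Nlrp4c.

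Nlrp14 measured 3439.8 RPM in IV 5% O2 against 3607 in IV 20% O2, a log2 difference of -0.07 with an interval from -0.08 to -0.06. The interval excluded 0, but the difference was -0.39 by median-ratio scaling, the lowest of the 9 genes, and 0.23 by quantile normalization, so its direction and size depended on the scaling. Against the median of all genes the difference of Nlrp14 was -0.33.

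Which Nlrp4 gene differed most depended on the scaling: it was Nlrp4f, the component of the subcortical maternal complex, as scaled by depth, and Nlrp4e by median-ratio scaling (-0.38) and quantile normalization (-0.31). Nlrp4f stood at 1397 RPM in IV 5% O2 and at 959.8 in IV 20% O2, which is 0.54 on the log2 scale (interval 0.53 to 0.56), and its difference was 0.22 by median-ratio scaling and 0.21 by quantile normalization. Nlrp4a measured 761 and 606 RPM, with a difference of 0.33 (0.31 to 0.35), close to the median of all genes. The difference of Nlrp4a was 0.009 by median-ratio scaling and 0.19 by quantile normalization. Nlrp4c measured 96.7 and 80.7 RPM, with a difference of 0.26 (0.21 to 0.32), which turned to -0.06 with median-ratio scaling. Nlrp4b measured 417 and 422 RPM, and its difference of -0.02 had an interval from -0.04 to 0.01 that held 0. The difference of Nlrp4b was -0.34 by median-ratio scaling and -0.19 by quantile normalization. Nlrp4e measured 214 and 223 RPM, with a difference of -0.06 (-0.09 to -0.02). Nlrp4b and Nlrp4e were lower in IV 5% O2 under each scaling. The intervals of Nlrp4c and Nlrp4e, the pair closest in sequence, did not overlap, but they cover counting error only. Both counts are uncertain, since 18.5% of the 100-base windows of Nlrp4c and 67.6% of those of Nlrp4e had a copy within 2 mismatches. The contrast between the 2 genes is therefore uncertain as well.

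The differences of the 3 Nlrp9 genes spanned 0.13 to 0.60, the highest of the set. Nlrp9c stood at 218 RPM in IV 5% O2 and at 144 in IV 20% O2, which is 0.60 on the log2 scale (0.56 to 0.64), and it was higher in IV 5% O2 under each scaling. It was the only one of the 9 genes past 1.5-fold as scaled by depth, and with differences of 0.28 by median-ratio scaling and 0.36 by quantile normalization it was under 1.5-fold by both. Nlrp9b measured 442 and 361 RPM, with a difference of 0.29 (0.27 to 0.32), which turned to -0.03 with median-ratio scaling. Nlrp9a measured 286 and 262 RPM, with a difference of 0.13 (0.10 to 0.16), which became -0.19 by median-ratio scaling and -0.11 by quantile normalization. In the order of differences, Nlrp4a with Nlrp9b, Nlrp9b with Nlrp4c, Nlrp4b with Nlrp4e, and Nlrp4e with Nlrp14 had overlapping counting intervals.

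**Figure D4:**
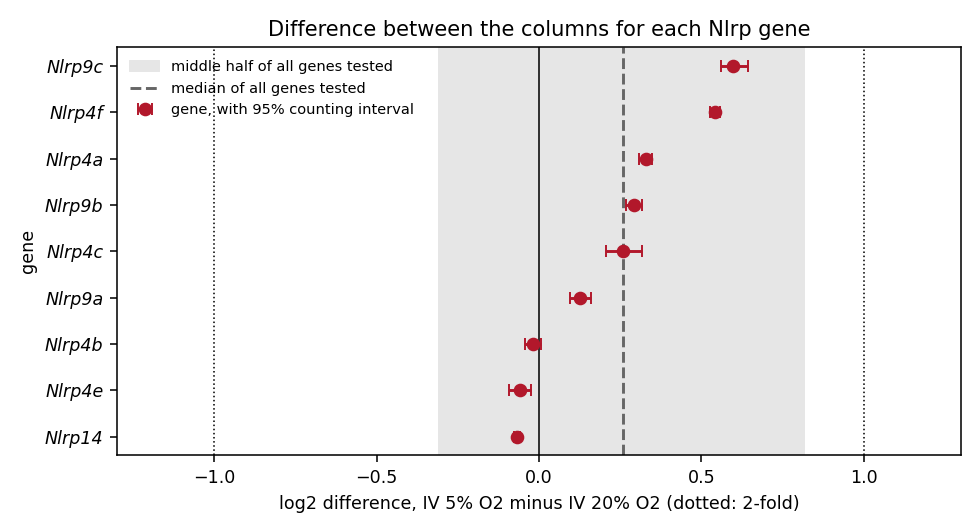
Difference of log2(RPM + 1) between IV 5% O2 and IV 20% O2 for each gene, with 95% counting intervals; the grey band spans the middle of all genes tested (between the lower and the upper quartile), the dashed line is their median and dotted lines mark 2-fold. The genes span -0.07 (Nlrp14) to 0.60 (Nlrp9c) and none reaches 2-fold, and the side of 0 of Nlrp14, Nlrp4c, Nlrp9a and Nlrp9b changed with the scaling.

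Of 12 other Nlrp genes looked for, 4 had rows. Nlrp5, also known as Mater and a core component of the subcortical maternal complex, measured 1905 RPM in IV 5% O2 against 1823 in IV 20% O2, or 393 and 376 RPM per kilobase, between Nlrp14 and Nlrp4f in both groups. Nlrp2, another oocyte member, measured 65.5 and 50.7 RPM per kilobase. Nlrp3, the inflammasome sensor, had 1.46 and 1.13 RPM, and Nlrp12, a regulator of inflammatory signalling, 1.01 and 0.783 RPM. Of the 3 that passed the limit on level 0 were 2-fold higher or lower in IV 5% O2, where 18.7% and 9.22% of all genes tested were, which for 3 genes is no difference to read. The oocyte members thus measured far more reads than the immune members with a row.

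The partners of NLRP4F in the subcortical maternal complex all had rows, and 1 of 7 was at least 2-fold lower in IV 5% O2 and 0 were 2-fold higher, against 9.22% and 18.7% of all genes tested. With median-ratio scaling Padi6 was 2-fold lower as well. Zbed3, a zinc finger component, measured 715 RPM in IV 5% O2 and 1634 in IV 20% O2, a log2 difference of -1.19. Padi6, an arginine deiminase needed for the egg's cytoplasmic lattices, measured 2266 and 4072 RPM, a difference of -0.85, and Khdc3, the KH-domain component also called Filia, 814 and 463 RPM, a difference of 0.81. Tle6, Ooep and Nlrp5 had differences of -0.16, -0.08 and 0.06. With 0.54, Nlrp4f lay between Nlrp2, at 0.37, and Khdc3.

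The 6 genes described as partners or targets of these proteins all had rows; 1 was at least 2-fold lower in IV 5% O2 and 0 higher, against 9.22% and 18.7% of all genes tested. With median-ratio scaling or quantile normalization Dtx4 was 2-fold lower as well. As scaled by depth the gene called was Dhx9, the RNA helicase that works with NLRP9B, at 16.9 RPM in IV 5% O2 and 39.4 in IV 20% O2, a log2 difference of -1.17. Uhrf1, the partner of NLRP14 and a factor of maintenance DNA methylation, measured 601 and 869 RPM, a difference of -0.53. Becn1, which encodes the autophagy protein Beclin 1, measured 47.6 and 28.9 RPM, and the kinase gene Tbk1 51.7 and 36.9 RPM, with differences of 0.70 and 0.47. Dtx4, the ubiquitin ligase gene, had only 0.484 and 1.86 RPM, and Slc8b1, a mitochondrial sodium and calcium exchanger gene, 0.999 and 1.25 RPM. For the set the median difference was -0.35, and it was -0.59 by median-ratio scaling and -0.68 by quantile normalization.

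Inflammasome components were sparse apart from Txnip. Of 14 such genes 7 had rows and 5 passed the limit on level, of which 3 were at least 2-fold higher in IV 5% O2 (18.7% of all genes tested were) and 0 were 2-fold lower (9.22% were). Pycard was 2-fold lower with median-ratio scaling and quantile normalization, and Casp8 was not 2-fold higher with the former. Txnip, a thioredoxin-binding protein gene that also responds to glucose, measured 1424 RPM in IV 5% O2 and 447 in IV 20% O2, a log2 difference of 1.67. Casp8, a caspase gene of cell death, measured 19.0 and 7.68 RPM, a difference of 1.20, and Nlrc4, an inflammasome sensor gene, 9.62 and 1.88 RPM, a difference of 1.88. Pycard, the adaptor that pyrin domains of inflammasome sensors bind, had 1.55 and 3.60 RPM. Casp1, the effector protease, had 145 reads in IV 5% O2 and 0 in IV 20% O2, where 0 reads allow up to 0.0734 RPM. Theca and stroma markers, at 37.4 and 4.65 RPM in sum, were also higher in IV 5% O2, and their part in these values was not tested.

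All 8 transcription factor genes of the oocyte programme that were looked for had rows; 1 was at least 2-fold lower in IV 5% O2 and 0 higher, against the same 9.22% and 18.7%. Sohlh1, a helix-loop-helix factor gene of early oocytes, measured 46.2 RPM in IV 5% O2 and 121 in IV 20% O2, a log2 difference of -1.37. Figla, whose protein binds E-boxes of zona pellucida genes, measured 28.3 and 40.5 RPM, a difference of -0.50. Nobox and Lhx8, homeobox factor genes, measured 496 and 271 RPM and 140.2 and 127 RPM, with differences of 0.87 and 0.14. The TATA-binding protein relative Tbpl2, which drives transcription in the oocyte, measured 31.0 and 39.5 RPM. The median difference of the 8 genes was 0.08, and it was -0.24 by median-ratio scaling and -0.12 by quantile normalization.

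RefSeq promoter windows of GRCm38.p6, reaching from 250 bases before to 50 after a start site, could be matched to 8 of the 9 genes, as 10 windows. Nlrp14 was not matched. On either strand, the E-box CANNTG was present in all 10 windows and in 72.3% of 32851 windows of the same length. The homeobox letters TAATTG were present in 2 of the 10 (Nlrp9a and Nlrp9b) and in 2628 of all 32851 windows, and TAATTA in 1 (Nlrp9a) and in 5.29%. TATAAA was present in 1 (Nlrp9b) and in 13.6%. The dinucleotide CG occurred in 9 of the 10 windows and in 94.6% of all. The E-box letters are thus common, and the count alone sets the genes little apart.

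The E-boxes of 3 Nlrp4 genes stood in the same arrangement, which was noticed in these sequences and then counted. CACATG was followed by CAGCTG, with the starts 33 bases apart in Nlrp4a and Nlrp4b and 32 in Nlrp4c. An arrangement with 32 or 33 bases between the starts occurred in 12 of the 32851 windows, or 0.0365%, and 4 of these windows belonged to the 3 Nlrp4 genes. As these genes are copies of each other, their promoters are not independent examples. The stretches are shown with both E-boxes in capitals.
Nlrp4a, chr7:26435549-26435609, plus strand: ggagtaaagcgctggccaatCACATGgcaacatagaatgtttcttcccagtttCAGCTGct
Nlrp4b, chr7:10687724-10687784, plus strand: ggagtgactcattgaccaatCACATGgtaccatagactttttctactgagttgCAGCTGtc
Nlrp4c, chr7:6045128-6045187, plus strand: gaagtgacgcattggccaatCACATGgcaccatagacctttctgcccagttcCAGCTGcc

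CACATG starts at position -45 from the later of 2 start sites in Nlrp4a, which lies inside the gene as annotated, and the window of its other start site does not hold the arrangement. It starts at -77 and -49 from the 2 start sites of Nlrp4b, and at -13 in Nlrp4c. Letters before and between the E-boxes were also alike. The levels of the 3 genes were not: in IV 5% O2, Nlrp4a stood at 157 RPM per kilobase, Nlrp4b at 92.9 and Nlrp4c at 24.1.

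Nlrp9a and Nlrp9c, which lie on opposite strands on either side of Nlrp4a, each had a single E-box, CAGGTG, in a stretch of 86 bases that was equal at 85 positions. The stretches are printed with the E-box in capitals, each on its gene's strand.
Nlrp9a, chr7:26534902-26534987, plus strand: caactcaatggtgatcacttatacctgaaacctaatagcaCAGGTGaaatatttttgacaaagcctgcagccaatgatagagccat
Nlrp9c, chr7:26403780-26403865, minus strand: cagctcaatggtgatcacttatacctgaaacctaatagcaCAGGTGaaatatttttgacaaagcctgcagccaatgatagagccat

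The 2 genes nonetheless measured 82.2 and 36.8 RPM per kilobase in IV 5% O2, and 75.3 and 24.2 in IV 20% O2. Part of this gap comes from the length divided by. Annotated exons cover 3483 bases in Nlrp9a and 5935 in Nlrp9c, although both coding sequences have 3012. In RPM, Nlrp9a and Nlrp9c measured 286 and 218 in IV 5% O2, and 262 and 144 in IV 20% O2. Their log2 differences between the groups were 0.13 for Nlrp9a and 0.60 for Nlrp9c, with intervals that did not overlap.

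Genes of the table beside the 9 members were low. Of 74 annotated protein-coding genes within 250 kb of a member that are not Nlrp genes, 27 had a row, and the rest were not analysed here. With genes of other types, the table had 29 such genes, with a median of 1.13 RPM per kilobase in IV 5% O2 and 1.00 in IV 20% O2, and none reached the level of Nlrp4c in either group. The highest were Epp13, 148 kb after Nlrp4c, at 18.3 and 15.3 RPM per kilobase, and Mfsd14b, 64.1 kb after Nlrp4f, at 14.7 and 16.8. Ceacam20, which ends 0.361 kb before Nlrp9b on the same strand, stood at 3.33 and 2.00 RPM per kilobase against 119 and 97.0 for Nlrp9b. High neighbours were Nlrp genes themselves. Nlrp9c, Nlrp4a and Nlrp9a follow each other on chromosome 7 with gaps of 31.4 and 58.9 kb, and Nlrp5 lies 23.6 kb after Nlrp4e.

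**Figure D5:**
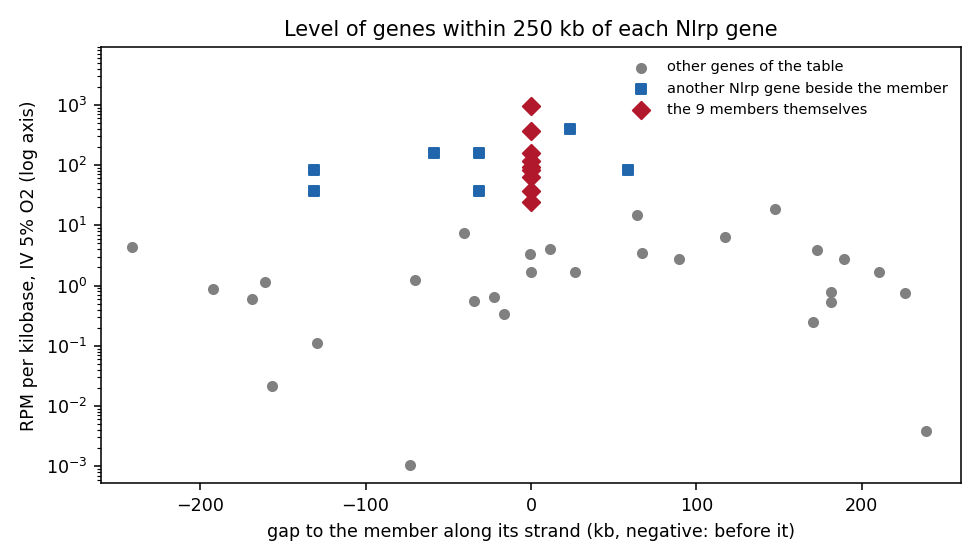
Level in IV 5% O2, in RPM per kilobase (log axis), of genes of the table within 250 kb of a member against the gap to it in kb along the member's strand (negative values lie before it); a gene near several members appears once for each, and genes without reads are left out. The 9 members (red, at 0) stand at 24.1 and above, as do the Nlrp genes beside them (blue), and the other genes (grey) at 18.3 and below.

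The 3 genes most like Nlrp14 over the 2 columns, by distance on log2(RPM per kilobase + 1), were H1f1 (distance 0.20), Fbxw24 (0.33) and Gdf9 (0.50). H1f1, a linker histone gene, stood at 1106 RPM per kilobase in IV 5% O2 and 974 in IV 20% O2. Fbxw24, an F-box gene, stood at 927 and 817. Gdf9, which encodes an oocyte growth factor for granulosa cells, stood at 1155 and 1381. With only 2 columns this likeness is one of level.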

How the data were processed

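RNA-seq of class IV oocytes, 2 libraries per condition, was analysed here; the RRBS and PBAT libraries were not. Per the submitters' processing notes and the study's methods, the authors trimmed reads with Trim Galore 0.2.8 or 0.3.5, aligned them with TopHat2 2.0.9 to GRCm38 and merged reads over exons in SeqMonk. The authors deposited 1 log2 value per gene and condition; how the libraries were combined, or whether each entered, is not given in the sources used here. The values are named RPKM, but their linear values are whole multiples of 1 read (100% within 0.05 reads below 10000 reads), so they were read as log2 RPM. Genes listed at 0.9 of 1 read were set to 0. The table has 1 further column of values, headed as in vivo class IV oocytes, which matched no sample of the series and was left out, so no in vivo level is described.

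Of 16591 rows, those sharing 1 of 18 repeated names were reduced to the row with the highest mean. Exonic lengths came from GENCODE M21, whose coordinates equal those of 16414 rows. The planned limma test needs a value per library, so a difference of log2(RPM + 1) of at least 2-fold was counted instead, for genes averaging 1 RPM or more. Intervals are Clopper-Pearson for ratios and Poisson for levels, at 95%, and the floor is 3 reads. The depth of 132185258 and 40875359 reads gives IV 5% O2 the higher precision. Exonic windows were compared with 22 chromosome sequences by BLAST 2.17.0 with low-complexity seeds masked; windows across exon junctions were not covered. Coding sequences were aligned with Biopython 1.88. A protein table was not used here, so likeness is given for coding bases. Read recovery, calls and intervals were checked on simulated data. Alternatives were pseudocounts, filters, scalings and members without repeated windows.

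The members and lists were chosen with earlier results of these data known. Named were all members, every tested gene of a list at least 2-fold apart with up to 6 others for their role, the 3 genes most like the highest member, and neighbours within 250 kb.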

Additional observations from a re-analysis of the deposited data

How the results depend on the processing

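No paired analysis was possible because each condition is deposited as 1 column that names no library, and for the same reason no library could be left out. Scalings of the list counts were added after seeing the data. The number of members 2-fold apart was 0 in each direction under all alternatives run. With median-ratio scaling the median of all genes moved from 0.26 to -0.04, the median of the 9 members turned to -0.058, and Nlrp4c (-0.058), Nlrp9a (-0.19) and Nlrp9b (-0.027) turned. With quantile normalization the median of all genes was 0.06 and that of the members 0.090, and Nlrp14 (0.23) and Nlrp9a (-0.11) turned. The cause was not tested beyond the scalings themselves. Dividing by the length covered by windows that are not repeated left 5 of 9 members in their place, since Nlrp4e moved up. Without Nlrp4e, the only member with exact copies of at least 10% of its 100-base windows, the members' median was 0.27. Without Nlrp4c as well, by a limit on copies within 2 mismatches that was chosen after seeing the data, it was 0.29. Over all genes, 2753 were 2-fold higher and 1356 lower; the counts were 3326 and 1625 with a pseudocount of 0.1, 3342 and 1533 with no filter, 1202 and 706 with a pseudocount of 5, 1691 and 917 with a mean of at least 5 RPM, 1700 and 2031 with median-ratio scaling, and 1759 and 1866 with quantile normalization. Counting error is small at these depths, and the spread between cultures is unknown.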
